A study of Homo sapiens with 38 samples.

Results

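The 48 h response of human embryonic stem cells to recombinant Wnt3a was set against their 48 h response to an induced, stabilised beta-catenin. For each gene the measure was a difference of changes on the log2 scale, the Wnt3a 48 h level minus the Wnt3a 0 h level, less the same change in the bcat arm. It used 8 of the 38 libraries, 2 in each of 4 groups, and the 24304 of 43412 gene symbols that passed a filter on low counts. The Wnt3a 48 h cells were H9, an established human embryonic stem cell line, given recombinant Wnt3a at 240 ng/ml for 48 h, and the Wnt3a 0 h cells were untreated H9. The bcat 48 h cells were an H9 line with a stably integrated deltaN90 mutant of beta-catenin, switched on by doxycycline at 1 µg/ml for 48 h, and the bcat 0 h cells were that line uninduced. Cells were grown in mTESR1 on Geltrex and seeded to confluence on Matrigel. Treated cultures were moved 16 h later to RPMI1640 with the B27 supplement lacking vitamin A, and medium and agent were renewed every 24 h. Only the bcat arm received doxycycline, and no sample was labelled as a 48 h culture in the differentiation medium without an agent. The labels do not give the medium of the 0 h cultures. Each 48 h change therefore holds the time and possibly the new medium as well as the agent, and in the difference between arms the line, doxycycline and the form of the WNT stimulus cannot be told apart. The labels do not say whether the integrated line is 1 clone. They call the replicates biological and no more, so the spread between replicates that the p-values rest on may be technical. That spread was estimated in 1 fit over 37 libraries of the series, not from these 8 alone.

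WNT ligands bind Frizzled and LRP receptors at the cell surface and halt the complex that marks beta-catenin for destruction, so that beta-catenin accumulates and joins TCF and LEF factors on its target genes. Many of those targets, such as AXIN2, NKD1, RNF43 and ZNRF3, encode brakes that act upstream of beta-catenin. A beta-catenin without its amino-terminal end lacks the sites by which it is marked, so those brakes have less hold on it. In pluripotent cells WNT signalling starts a primitive streak programme. NODAL signalling, acting through SMAD2, SMAD3 and FOXH1, favours anterior mesendoderm and endoderm within that programme, while sustained WNT favours posterior fates marked by CDX and HOX genes.

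Depth ran from 2.45 M to 65.75 M estimated counts per library (M stands for 1e+06), both extremes being Wnt3a 0 h libraries. Levels are given as CPM, counts per M counts of a library after TMM scaling, and 1 count was worth 0.323 CPM in the shallow and 0.0147 CPM in the deep library. Replicates correlated at Pearson r of 0.976 to 0.989 across genes, which are not independent. Cytosolic ribosomal RNA took 0.419% to 4.94% of counts in the 4 Wnt3a-arm libraries and 5.77% to 60.2% in the 4 bcat-arm libraries, and mitochondrial transcripts took 6.86% to 10.6% and 0.369% to 1.18%. With ribosomal RNA genes left out before scaling, 3068 genes were called in place of 2977, and 1938 when libraries with a high ribosomal share or a low depth were dropped (bcat 48 h replicate 2, bcat 0 h replicate 1, Wnt3a 0 h replicate 1 and, outside these groups, bcat 24 h replicate 1), which are called doubtful here. The mitochondrial share counts all transcripts of the mitochondrial genome. Its 13 mRNAs summed to only 2337 to 2411 CPM at Wnt3a 48 h and 773 to 1015 CPM at bcat 48 h. Both shares differed by arm at 0 h and at 48 h, so in contrasts of levels they cannot be told apart from the arm. The part of the mitochondrial share in the results was not tested. The pluripotent label held at 0 h: POU5F1 had 899 and 991 CPM at Wnt3a 0 h and 995 and 1237 CPM at bcat 0 h, and SOX2, NANOG, LIN28A, L1TD1, DNMT3B, DPPA4 and TDGF1 were each above 50 CPM in the 4 libraries.

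After 48 h, cells given Wnt3a had switched on genes of the anterior primitive streak and some genes of NODAL signalling, and cells with induced beta-catenin had switched on posterior homeobox genes. Most of a list of WNT feedback genes and direct targets stood higher with induced beta-catenin. Both arms raised the streak genes T, EOMES and MIXL1. In bulk RNA, here and in all that follows, more cells of a type and more RNA per cell cannot be told apart. In edgeR's quasi-likelihood test with Benjamini-Hochberg adjustment at 0.05, 2977 of 24304 genes (12.2%) changed differently in the arms. The Wnt3a change was the higher in 1297 of them (5.34% of genes tested) and the lower in 1680 (6.91%), so that 43.6% of calls were higher. That balance turned without Wnt3a 0 h replicate 2, when 2214 genes were called, 58% of them higher, and the median difference over all genes was 0.21. The median difference over all genes was -0.06 on the log2 scale, and 1900 of the called genes differed by at least 1. The changes of the arms did not overlap in any pairing of libraries in 8015 genes (33.0%). The Wnt3a arm alone changed 4027 genes (16.6%) and the bcat arm 5234 (21.5%). Beside each list count given below, the shares over all genes are 5.34% with a higher and 6.91% with a lower Wnt3a change. Within an arm, 7.80% rose and 8.77% fell with Wnt3a, and 11.2% rose and 10.3% fell with induced beta-catenin. Between the arms, 13.9% stood higher and 15.5% lower with Wnt3a at 48 h, and 12.2% and 12.1% at 0 h.

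Most differences came from a change in a single arm. Among the 1297 genes with the higher Wnt3a change, 572 fell in the bcat arm and were not called in the Wnt3a arm, 321 rose in the Wnt3a arm and were not called in the bcat arm, and 137 rose in the Wnt3a arm while they fell in the bcat arm. Among the 1680 with the lower Wnt3a change, 816 rose in the bcat arm and were not called in the Wnt3a arm, 415 fell in the Wnt3a arm alone, and 168 fell in the Wnt3a arm while they rose in the bcat arm. Of the 2977 genes, 1266 differed between the arms at 48 h and not at 0 h, 632 at both hours and 958 at 0 h and not at 48 h. For those 958 genes the difference of changes rests on unequal starting levels of the Wnt3a 0 h and bcat 0 h cells, and the 48 h level of each gene is given beside its difference for that reason. Between the 48 h groups themselves 7128 genes (29.3%) differed, and between the 0 h groups 5895 (24.3%).

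**Figure D1:**
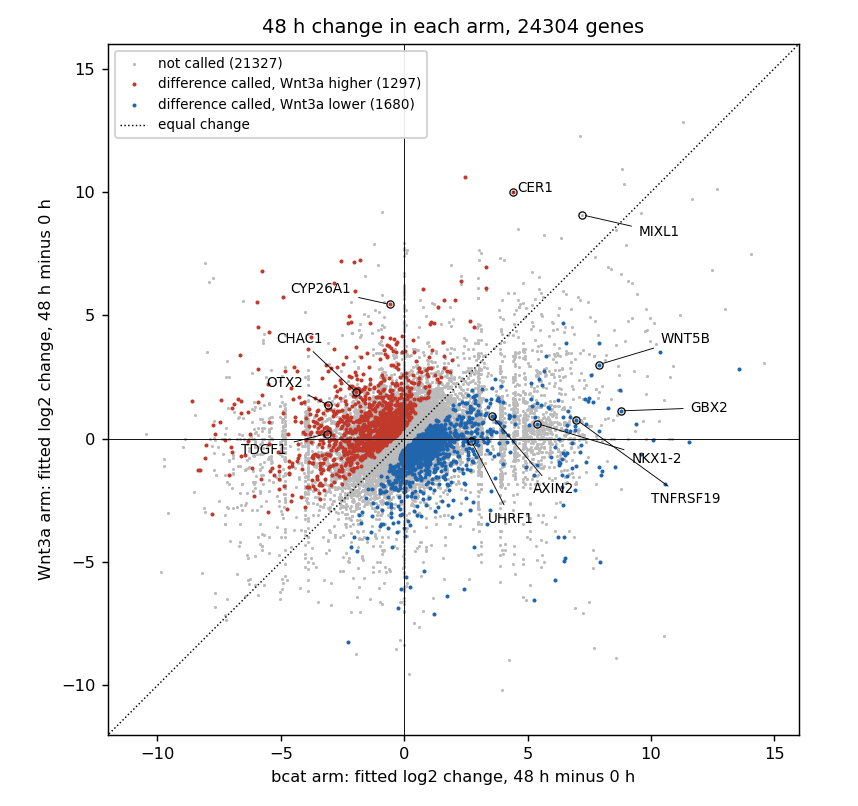
Fitted log2 change from 0 h to 48 h in the Wnt3a arm (vertical) against the bcat arm (horizontal) for the 24304 genes tested, each point a gene. Red points are the 1297 genes and blue points the 1680 genes called with a higher or lower Wnt3a change, grey points were not called, and the dotted line marks equal change; CER1 and CYP26A1 lie above it and AXIN2, WNT5B and GBX2 below it.

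CTNNB1, the gene of beta-catenin, checks the induction. It had 616 and 617 CPM at Wnt3a 48 h and 537 and 657 CPM at Wnt3a 0 h, against 2656 and 2480 CPM at bcat 48 h and 652 and 750.1 CPM at bcat 0 h. The induced libraries stood well above the other 6, which overlapped among themselves. Reads of the construct and of the resident gene are not separated in these counts. The log2 change was 0.04 ± 0.10 (SE, adjusted p = 0.853) in the Wnt3a arm and 1.87 ± 0.10 (adjusted p = 1.64e-14) in the bcat arm, a difference of -1.83 ± 0.14 (adjusted p = 2.91e-10). Of the 20 tested genes of beta-catenin and its destruction complex, 2 had a higher Wnt3a change, against 5.34% of all genes, and 4 a lower, against 6.91%, with a median of -0.32. AMER1, which encodes a membrane scaffold of that complex, was among the lower at -1.25 ± 0.23 (adjusted p = 0.000321), but its 48 h levels of 31.2 and 31.4 CPM with Wnt3a and 39.7 and 38.3 CPM with induced beta-catenin were not called different, and its 0 h levels were, at 29.4 and 30.4 CPM in the Wnt3a arm and 20.9 and 12.7 CPM in the bcat arm.

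The feedback genes and direct targets of the pathway, taken as 1 list, responded more to induced beta-catenin than to Wnt3a. The list mixes inhibitors with genes such as CCND1 and MYC, and its member DKK4, described below, stood higher with Wnt3a at 48 h. Of 19 tested, 8 had a lower and 1 a higher Wnt3a change, and the median difference was -1.23, beside -0.06 over all genes. Wnt3a raised 9 of the 19, against 7.80% of all genes, and induced beta-catenin 14, against 11.2%. At 48 h 14 stood lower in Wnt3a cells, against 15.5% of all genes, and 2 higher, against 13.9%. Their summed level was 819 to 915 CPM at Wnt3a 48 h and 354 to 445 CPM at Wnt3a 0 h, and 1916 to 1936 CPM at bcat 48 h and 286 to 303 CPM at bcat 0 h. Without Wnt3a 0 h replicate 2, the deepest library, 5 of them kept a called lower change.

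AXIN2 encodes the scaffold of the destruction complex and is a standard readout of the pathway. AXIN2 had 40.9 and 37.9 CPM at Wnt3a 48 h and 18.4 and 21.6 CPM at Wnt3a 0 h, against 294.7 and 289.7 CPM at bcat 48 h and 24.1 and 25.25 CPM at bcat 0 h. It rose in both arms, by 0.92 ± 0.20 (adjusted p = 0.00168) with Wnt3a and by 3.56 ± 0.21 (adjusted p = 3.9e-13) with induced beta-catenin. The 48 h groups were far apart and the 0 h groups close, and the changes differed by -2.64 ± 0.29 (adjusted p = 2.34e-07). NKD1 encodes an inhibitor that binds Dishevelled. NKD1 had 12.5 and 27.2 CPM at Wnt3a 48 h and 5.17 and 8.62 CPM at Wnt3a 0 h, against 329 and 380.3 CPM at bcat 48 h and 8.53 and 7.17 CPM at bcat 0 h. Its difference was -4.16 ± 0.46 (adjusted p = 1.77e-06), and its rise with Wnt3a, 1.38 ± 0.31, was no longer called without Wnt3a 48 h replicate 2 (0.65). CCND1 is the gene of cyclin D1. CCND1 had 63.1 and 83.2 CPM at Wnt3a 48 h and 53.4 and 69.9 CPM at Wnt3a 0 h, against 209 and 234 CPM at bcat 48 h and 23.2 and 26.2 CPM at bcat 0 h. It did not pass the test in the Wnt3a arm (0.21 ± 0.17) and rose by 3.14 ± 0.19 in the bcat arm, from a 0 h level that was already lower there.

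The paired receptor-clearing ligases RNF43 and ZNRF3 followed the induced arm. ZNRF3 had 22.4 and 23.4 CPM at Wnt3a 48 h and 23 and 29.1 CPM at Wnt3a 0 h, against 66.4 and 77.3 CPM at bcat 48 h and 18.8 and 20.3 CPM at bcat 0 h, a difference of -2.10 ± 0.29 (adjusted p = 7.03e-06). RNF43 stood at 0.762 and 2.61 CPM at Wnt3a 48 h and 1.94 and 1.53 CPM at Wnt3a 0 h, against 80.2 and 75.0 CPM at bcat 48 h and 4.41 and 13.2 CPM at bcat 0 h. Its difference of -2.56 ± 0.56 (adjusted p = 0.00295) lost its call when Wnt3a 0 h replicate 2 was left out (adjusted p = 0.226) and was -3.98 when Wnt3a 48 h replicate 2 was. TCF7, a transcription factor partner of beta-catenin, likewise rose with induced beta-catenin (3.01 ± 0.35) and was not called with Wnt3a (0.58 ± 0.31), a difference of -2.44 ± 0.48 (adjusted p = 0.00073).

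SP5 and LEF1, also direct targets, rose strongly in both arms, and the difference did not pass the test. SP5 is a repressor in the same circuit. SP5 had 78.2 and 79.4 CPM at Wnt3a 48 h and 0 and 0.0587 CPM at Wnt3a 0 h, against 135 and 175 CPM at bcat 48 h and 0 and 0.428 CPM at bcat 0 h. LEF1 had 10.0 and 6.66 CPM at Wnt3a 48 h and 0.647 and 0.22 CPM at Wnt3a 0 h, against 54.9 and 54.9 CPM at bcat 48 h and 2.06 and 0.214 CPM at bcat 0 h. The 48 h levels of both were lower with Wnt3a, by 0.97 ± 0.24 for SP5 (adjusted p = 0.00289) and by 2.79 ± 0.25 for LEF1 (adjusted p = 8.56e-10), while the differences of changes, 1.40 ± 1.64 and -1.23 ± 0.87, carry the error of 0 h levels near 0. MYC was the 1 member of the group called with a higher Wnt3a change. It had 46.3 and 46.6 CPM at Wnt3a 48 h and 25.2 and 36.9 CPM at Wnt3a 0 h, against 7.24 and 6.79 CPM at bcat 48 h and 22.6 and 21.7 CPM at bcat 0 h, so that it fell with induced beta-catenin by 1.65 on the log2 scale and the difference was 2.16 ± 0.35 (adjusted p = 6.32e-05).

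Of 19 tested secreted and membrane modulators of WNT 4 had a higher and 1 a lower Wnt3a change, against 5.34% and 6.91% of all genes. SHISA2 and SHISA3 encode relatives that hold Frizzled and FGF receptors back in the cell. SHISA2 had 39.1 and 50.5 CPM at Wnt3a 48 h and 15.5 and 16.7 CPM at Wnt3a 0 h, against 1.37 and 1.04 CPM at bcat 48 h and 19.4 and 25.0 CPM at bcat 0 h. SHISA3 had 0.326 and 0.282 CPM at Wnt3a 48 h and 1.62 and 2.66 CPM at Wnt3a 0 h, against 10.6 and 13.7 CPM at bcat 48 h and 1.18 and 3.21 CPM at bcat 0 h. SHISA2 thus rose with Wnt3a and fell with induced beta-catenin, SHISA3 did the reverse, and the differences were 5.63 ± 0.54 (adjusted p = 6.76e-08) and -5.29 ± 0.55 (adjusted p = 4.91e-08). The Dickkopf genes DKK1 and DKK4, whose products block LRP receptors, were raised in both arms. DKK4 had 229 and 264 CPM at Wnt3a 48 h and 0 and 0.0294 CPM at Wnt3a 0 h, against 17.4 and 9.54 CPM at bcat 48 h and 0 counts at bcat 0 h, and its 48 h level was higher with Wnt3a by 4.14 ± 0.28 (adjusted p = 9.67e-11). DKK1 had 52.2 and 42.2 CPM at Wnt3a 48 h and 0 and 0.132 CPM at Wnt3a 0 h, against 199 and 99.8 CPM at bcat 48 h and 0 and 0.535 CPM at bcat 0 h, so its 48 h level was lower with Wnt3a by 1.68 ± 0.25 (adjusted p = 9.7e-06), or by 1.09 without bcat 48 h replicate 1. NOTUM is the gene of a secreted enzyme that inactivates WNT ligands. NOTUM had 0.544 and 0.599 CPM at Wnt3a 48 h and 0.323 and 0.0294 CPM at Wnt3a 0 h, against 35.5 and 38.7 CPM at bcat 48 h and 0.294 and 0.214 CPM at bcat 0 h.

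The cells' own WNT ligands divided between the arms, and 3 of 13 tested differed in their change, against 12.2% of all genes. WNT3 is the ligand of the gastrulating epiblast. WNT3 had 28.9 and 34.6 CPM at Wnt3a 48 h and 0.647 and 0.719 CPM at Wnt3a 0 h, against 4.62 and 3.53 CPM at bcat 48 h and 0 and 0.214 CPM at bcat 0 h. WNT5B is a ligand of the posterior streak and tail. WNT5B had 6.31 and 5.14 CPM at Wnt3a 48 h and 0.647 and 0.69 CPM at Wnt3a 0 h, against 226 and 225 CPM at bcat 48 h and 1.18 and 0.856 CPM at bcat 0 h. WNT8A, another streak ligand, had 1.63 and 1.13 CPM at Wnt3a 48 h and 0 and 0.0294 CPM at Wnt3a 0 h, against 51.0 and 38.7 CPM at bcat 48 h and 0 counts at bcat 0 h. At 48 h WNT3 stood higher with Wnt3a by 2.93 ± 0.28 (adjusted p = 8.31e-10) and WNT5B and WNT8A lower, by 5.34 ± 0.17 (adjusted p = 2.99e-20) and 5.13 ± 0.39 (adjusted p = 9.89e-11). The change differed for WNT5B (-4.89 ± 0.43, adjusted p = 1.57e-09) and not for WNT3 (0.78 ± 1.20) or WNT8A, whose starting levels were at or near 0. WNT9B and WNT4 were the other 2 called members, at levels under 7 CPM, and each lost its call when 1 library was left out (WNT9B without bcat 0 h replicate 2, adjusted p = 0.0524, and WNT4 without Wnt3a 0 h replicate 2, adjusted p = 0.369, among 4 such libraries).

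Genes of NODAL signalling divided between the arms. NODAL itself had 157 and 172 CPM at Wnt3a 48 h and 3.56 and 2.66 CPM at Wnt3a 0 h, against 15.8 and 12.7 CPM at bcat 48 h and 0.294 and 0.963 CPM at bcat 0 h. It rose in both arms, the difference of changes was not called (1.69 ± 0.76, adjusted p = 0.165), and its 48 h level was higher with Wnt3a by 3.51 ± 0.24 (adjusted p = 3.67e-12). Of 20 tested NODAL and ACTIVIN pathway genes 6 had a higher and 3 a lower Wnt3a change, against 5.34% and 6.91% of all genes. The median difference was 0.89. At 48 h 9 stood higher in Wnt3a cells and 3 lower, against 13.9% and 15.5% of all genes. At 0 h 7 were higher in the Wnt3a arm and 2 lower, against 12.2% and 12.1%. Those called with a higher Wnt3a change include CER1, LEFTY1, LEFTY2 and the co-receptor gene TDGF1. FST, the gene of follistatin, an extracellular inhibitor of ACTIVIN, was called lower. FST had 248 and 215 CPM at Wnt3a 48 h and 10.35 and 8.62 CPM at Wnt3a 0 h, against 814 and 791 CPM at bcat 48 h and 10.9 and 8.45 CPM at bcat 0 h. It rose in both arms and more with induced beta-catenin, a difference of -1.74 ± 0.28 (adjusted p = 6.11e-05). FOXH1, the DNA-binding partner of SMAD2 and SMAD3, was among the lower at -0.81 ± 0.23 (adjusted p = 0.0181).

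CER1 encodes Cerberus, a secreted inhibitor of NODAL, BMP and WNT made by the anterior endoderm. It had 502 and 646 CPM at Wnt3a 48 h and 0.97 and 0.528 CPM at Wnt3a 0 h, against 8.61 and 4.05 CPM at bcat 48 h and 0.294 and 0.321 CPM at bcat 0 h. The Wnt3a 48 h libraries stood far above the other 6, and the difference was 5.58 ± 1.56 (adjusted p = 0.0166). That call was lost without bcat 0 h replicate 2 (adjusted p = 0.336), bcat 0 h replicate 1 (0.0558) or Wnt3a 0 h replicate 2 (0.0789), although the difference stayed between 4.78 and 6.34, and the 48 h levels differed by 6.39 ± 0.26 (adjusted p = 2.11e-16). LEFTY1 and LEFTY2 are a neighbouring pair that encode antagonists of NODAL, and their similar sequences leave the split of reads between them uncertain. LEFTY1 had 17.6 and 28.5 CPM at Wnt3a 48 h and 2.26 and 4.46 CPM at Wnt3a 0 h, against 0.399 and 0.261 CPM at bcat 48 h and 2.06 and 1.5 CPM at bcat 0 h, a difference of 4.76 ± 0.74 (adjusted p = 3.61e-05). LEFTY2 had 7.18 and 12.5 CPM at Wnt3a 48 h and 5.17 and 2.91 CPM at Wnt3a 0 h, against 0 counts in both bcat 48 h libraries and 1.76 and 2.35 CPM at bcat 0 h. Taking the group's 0 as 3 counts, it was at least 94.3-fold higher at Wnt3a 48 h than at bcat 48 h, and at least 18.45-fold lower at bcat 48 h than at bcat 0 h. The pair rose with Wnt3a and fell with induced beta-catenin, and LEFTY2 had the largest positive difference of the genes that met the naming rule (10.16 fitted, a value that depends on the prior count).

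TDGF1 is the gene of the NODAL co-receptor Cripto. TDGF1 had 100.3 and 107 CPM at Wnt3a 48 h and 80.5 and 96.3 CPM at Wnt3a 0 h, against 14.2 and 9.41 CPM at bcat 48 h and 108 and 104 CPM at bcat 0 h. GDF3 encodes a ligand that works with NODAL. GDF3 had 23.4 and 25.3 CPM at Wnt3a 48 h and 14.2 and 12.7 CPM at Wnt3a 0 h, against 0.741 and 0.653 CPM at bcat 48 h and 3.24 and 3.85 CPM at bcat 0 h. Neither fell with Wnt3a and both fell with induced beta-catenin, by 3.12 and 2.35 on the log2 scale, and the differences were 3.33 ± 0.24 (adjusted p = 4.19e-11) and 3.22 ± 0.53 (adjusted p = 5.28e-05).

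CER1 and GDF3 belong to the NODAL list and had a higher Wnt3a change, and SP5 and MIXL1 rose in both arms. The start regions of these 4 genes are shown, and all 4 hold a match to the letters sought. Each is the RefSeq window of GRCh38.p14 from 250 bases before to 50 bases after the start, on the gene's strand. Capitals mark the TCF/LEF letters CTTTGAT and the FOXH1-type letters TGTGNATT, searched on both strands. The windows are chr9:14722684-14722983 (minus strand) for CER1, chr12:7695726-7696025 (minus strand) for GDF3, chr2:170715087-170715386 (plus strand) for SP5 and chr1:226223414-226223713 (plus strand) for MIXL1.
CER1: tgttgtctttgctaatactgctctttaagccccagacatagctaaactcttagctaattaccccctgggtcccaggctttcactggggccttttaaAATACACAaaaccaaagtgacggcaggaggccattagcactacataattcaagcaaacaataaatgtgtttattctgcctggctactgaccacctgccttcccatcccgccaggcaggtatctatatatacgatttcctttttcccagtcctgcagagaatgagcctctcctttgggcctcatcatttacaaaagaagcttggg
GDF3: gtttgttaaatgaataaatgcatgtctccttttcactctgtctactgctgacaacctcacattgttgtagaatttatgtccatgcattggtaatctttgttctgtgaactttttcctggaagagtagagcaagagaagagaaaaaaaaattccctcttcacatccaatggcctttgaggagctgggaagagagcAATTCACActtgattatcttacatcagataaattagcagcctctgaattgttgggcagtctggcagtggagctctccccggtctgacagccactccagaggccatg
SP5: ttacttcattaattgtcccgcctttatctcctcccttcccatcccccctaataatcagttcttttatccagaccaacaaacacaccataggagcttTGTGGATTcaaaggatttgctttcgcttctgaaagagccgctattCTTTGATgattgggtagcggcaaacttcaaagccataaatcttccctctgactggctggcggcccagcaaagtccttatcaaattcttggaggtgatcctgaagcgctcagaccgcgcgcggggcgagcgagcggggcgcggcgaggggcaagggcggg
MIXL1: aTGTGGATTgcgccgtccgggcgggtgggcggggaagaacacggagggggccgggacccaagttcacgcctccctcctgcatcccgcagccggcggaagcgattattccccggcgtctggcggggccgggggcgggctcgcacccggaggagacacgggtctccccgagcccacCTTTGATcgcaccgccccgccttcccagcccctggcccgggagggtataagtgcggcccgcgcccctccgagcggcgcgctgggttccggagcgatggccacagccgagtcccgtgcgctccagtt
The FOXH1-type letters lie 154 bases before the start of CER1 and 56 before that of GDF3, both on the opposite strand, and SP5 and MIXL1 hold both kinds, the TCF/LEF letters 109 and 76 bases and the FOXH1-type letters 154 and 249 bases before the start. RefSeq gave 35116 windows of this length. The TCF/LEF letters were in 919 of them (2.62%) and the FOXH1-type letters in 1164 (3.31%). Of the 20 NODAL and ACTIVIN genes 15 had a window, and 3 of them held the FOXH1-type letters (CER1, GDF3 and PMEPA1) and 1 the TCF/LEF letters (ACVR1B). Of the 19 WNT feedback genes and direct targets 10 had a window, and SP5 alone held either. Of the 22 streak and mesendoderm genes 14 had a window, 4 with the FOXH1-type letters and 2 with the TCF/LEF letters. The windows of CYP26A1, also on the NODAL list with a higher Wnt3a change, held 0 matches. So did those of EOMES, T, LEF1, DKK1 and NODAL, which rose in both arms. A match is a description of these letters in this window and no more.

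The primitive streak programme came on in both arms and went further with Wnt3a at its anterior end. Of 22 tested streak and mesendoderm genes 20 rose with Wnt3a, against 7.80% of all genes, and 18 with induced beta-catenin, against 11.2%. The change was higher with Wnt3a in 4 (1 without bcat 0 h replicate 2, 7 by DESeq2's Wald test) and lower in 0 by edgeR (0 at an unadjusted p under 0.05 and 1 by DESeq2). Over all genes the change was higher in 5.34% and lower in 6.91%. At 48 h 12 of the 22 stood higher with Wnt3a and 5 lower, against 13.9% and 15.5% of all genes. Their summed level was 1802 to 2102 CPM at Wnt3a 48 h and 20.1 to 27.5 CPM at Wnt3a 0 h, and 587 to 662 CPM at bcat 48 h and 12.1 to 17.6 CPM at bcat 0 h.

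EOMES is a T-box factor needed for mesendoderm. EOMES had 307 and 332 CPM at Wnt3a 48 h and 0.97 and 0.117 CPM at Wnt3a 0 h, against 43.9 and 32.3 CPM at bcat 48 h and 0 and 0.107 CPM at bcat 0 h. MIXL1 is a homeobox factor of the streak. MIXL1 had 309 and 339 CPM at Wnt3a 48 h and 0 and 0.631 CPM at Wnt3a 0 h, against 91.3 and 69.8 CPM at bcat 48 h and 0 and 0.749 CPM at bcat 0 h. T (brachyury), the T-box factor of the streak and tail, ran the other way, with 14.0 and 10.7 CPM at Wnt3a 48 h and 0 and 0.0294 CPM at Wnt3a 0 h, against 121 and 96.9 CPM at bcat 48 h and 0.294 and 0 CPM at bcat 0 h. At 48 h EOMES and MIXL1 were higher with Wnt3a, by 3.05 ± 0.35 (adjusted p = 4.98e-07) and 2.00 ± 0.33 (adjusted p = 8.46e-05), and T was lower by 3.18 ± 0.20 (adjusted p = 4.65e-13). None of the 3 passed the test of the difference of changes, whose errors were 1.58 to 4.09.

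Anterior streak and endoderm regulators were high at Wnt3a 48 h and low in the induced cells. GSC is a homeobox gene of the organizer. GSC had 25.5 and 35.0 CPM at Wnt3a 48 h and 0 and 0.0147 CPM at Wnt3a 0 h, against 1.03 and 0.653 CPM at bcat 48 h and 0 and 0.214 CPM at bcat 0 h. LHX1 is a LIM homeobox gene of the same region. LHX1 had 26.0 and 28.1 CPM at Wnt3a 48 h and 0.647 and 0.147 CPM at Wnt3a 0 h, against 0.228 and 0.784 CPM at bcat 48 h and 1.47 and 1.39 CPM at bcat 0 h. HHEX is a homeobox gene of anterior endoderm. HHEX had 7.72 and 10.2 CPM at Wnt3a 48 h and 0 and 0.0587 CPM at Wnt3a 0 h, against 0.798 and 0.523 CPM at bcat 48 h and 3.53 and 4.6 CPM at bcat 0 h. The 3 differences were 8.12 ± 1.72 (adjusted p = 0.00132), 9.01 ± 1.28 (adjusted p = 1.31e-05) and 9.78 ± 0.84 (adjusted p = 7.06e-10). For GSC, where the Wnt3a 0 h group held 1 count, the rise was 2326-fold with a 95% counting interval of 417 to 91930, and without bcat 0 h replicate 2 its difference was 3.24 and not called. HHEX rose in the Wnt3a arm and fell in the bcat arm, which had begun with more of it.

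OTX2 is a homeobox gene of the anterior epiblast. OTX2 had 96.2 and 103 CPM at Wnt3a 48 h and 35.2 and 40.6 CPM at Wnt3a 0 h, against 4.22 and 3.53 CPM at bcat 48 h and 32.1 and 35.1 CPM at bcat 0 h. The 0 h groups nearly met, the 48 h groups stood far apart, and the difference of 4.46 ± 0.30 (adjusted p = 1.92e-11) was called under the 18 alternatives tried. Of 17 tested definitive endoderm genes 5 had a higher and 0 a lower Wnt3a change by edgeR (0 lower at an unadjusted p under 0.05 and by DESeq2, and 3 higher once bcat 0 h replicate 2 or the doubtful libraries were dropped), 11 rose with Wnt3a and 6 with induced beta-catenin. Over all genes 7.80% rose with Wnt3a and 11.2% with induced beta-catenin. The endoderm genes with a higher change include CER1 and CYP26A1, which the NODAL list also counts. FOXA2, a forkhead factor of endoderm and organizer, reached 19.3 and 24.0 CPM at Wnt3a 48 h with 0.323 and 0.0587 CPM at Wnt3a 0 h, against 0.399 and 0.523 CPM at bcat 48 h and 0 counts at bcat 0 h. SOX17, the endoderm regulator, was at 9.14 and 13.3 CPM at Wnt3a 48 h and 0 and 0.0147 CPM at Wnt3a 0 h, against 0 and 0.131 CPM at bcat 48 h and 0.294 and 0 CPM at bcat 0 h. At 48 h FOXA2 was higher with Wnt3a by 5.61 ± 0.41 (adjusted p = 2.18e-12) and SOX17 was 309.8-fold higher with a 95% counting interval of 55.3 to 12260, while neither difference of changes was called (adjusted p = 0.962 and 0.148).

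Posterior homeobox genes were switched on by induced beta-catenin and hardly at all by Wnt3a. The 27 tested CDX, EVX, GBX2 and HOX genes summed to 8.42 to 9.79 CPM at Wnt3a 48 h and 3.23 to 6.99 CPM at Wnt3a 0 h, and to 484 to 508 CPM at bcat 48 h and 1.76 to 4.49 CPM at bcat 0 h. Induced beta-catenin raised 16 of them and Wnt3a 5, and at 48 h 22 stood lower in Wnt3a cells and 0 higher, against 15.5% and 13.9% of all genes (13 lower with the 8 libraries alone, 14 without Wnt3a 48 h replicate 2). The difference of changes was called lower in 3 (10 by DESeq2's Wald test, 1 without Wnt3a 0 h replicate 2) and higher in 0 by edgeR, at an unadjusted p under 0.05 and by DESeq2. Over all genes 11.2% rose with induced beta-catenin and 7.80% with Wnt3a. Counts in all 4 groups were present for 3 of the 27.

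CDX2 is a caudal-type factor that turns on HOX genes. CDX2 had 0.109 and 0.176 CPM at Wnt3a 48 h and 0 and 0.0147 CPM at Wnt3a 0 h, against 132.5 and 137 CPM at bcat 48 h and 0 counts in both bcat 0 h libraries. With 3 counts in place of 0 it was at least 568-fold higher at bcat 48 h than at bcat 0 h, and its 48 h level was lower with Wnt3a by 9.67 ± 0.44 (adjusted p = 2.98e-14). HOXB2 had 0 and 0.0352 CPM at Wnt3a 48 h and 0 and 0.0294 CPM at Wnt3a 0 h, against 5.98 and 6.01 CPM at bcat 48 h and 0 counts at bcat 0 h. It was called with a fitted difference of -10.16 (adjusted p = 0.00527), a value that depends on the prior count, and not called without Wnt3a 0 h replicate 2. EVX1, a homeobox gene of the streak, came on in both arms, with 4.9 and 4.37 CPM at Wnt3a 48 h against 20.4 and 14.5 CPM at bcat 48 h, with 0 counts in both 0 h groups.

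**Figure D2:**
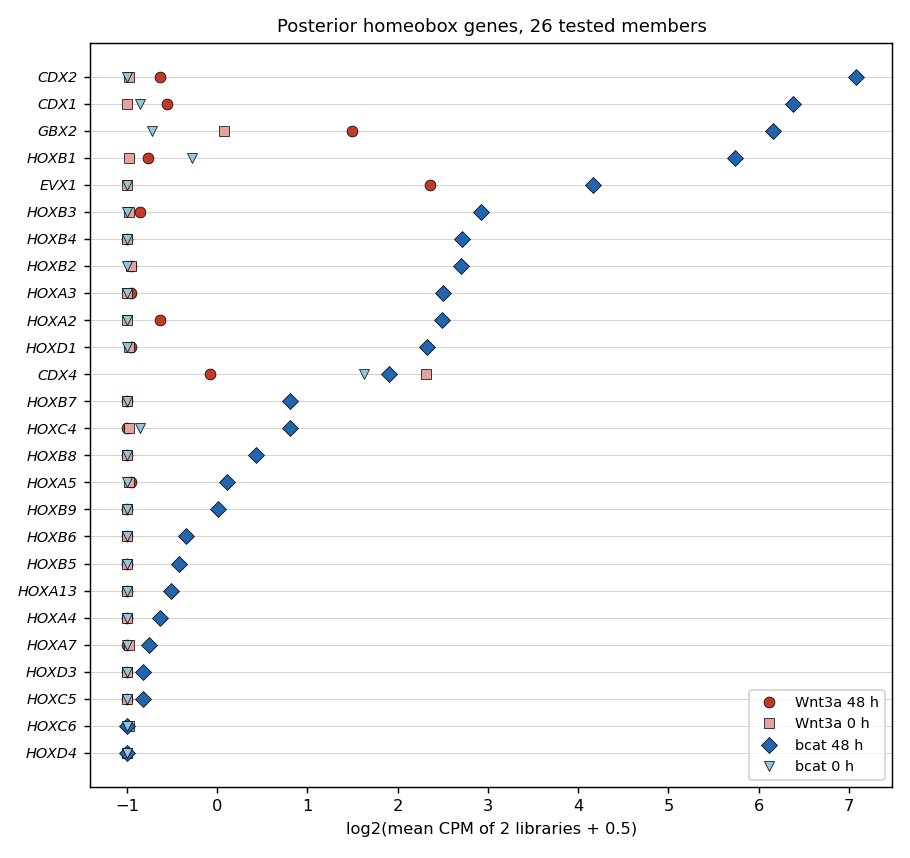
Mean level of 26 of the 27 tested posterior homeobox genes in the 4 groups, each symbol the mean of 2 libraries as log2(CPM + 0.5), so that -1 stands for 0 counts. Blue diamonds (bcat 48 h) lie far to the right of the red circles (Wnt3a 48 h) in the upper rows, and both 0 h groups sit at or near -1 except for CDX4, GBX2 and HOXB1.

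GBX2 is a homeobox gene of the posterior epiblast and hindbrain. GBX2 had 2.5 and 2.11 CPM at Wnt3a 48 h and 0 and 1.1 CPM at Wnt3a 0 h, against 63.3 and 78.6 CPM at bcat 48 h and 0 and 0.214 CPM at bcat 0 h. Its difference of -7.64 ± 0.72 (adjusted p = 5.58e-09) became -0.18 without Wnt3a 0 h replicate 2, when the lone Wnt3a 0 h library held 0 counts, and -12.55 without bcat 0 h replicate 2. NKX1-2 is a homeobox gene of the caudal epiblast. NKX1-2 had 32.1 and 19.6 CPM at Wnt3a 48 h and 14.2 and 17.1 CPM at Wnt3a 0 h, against 368 and 320.2 CPM at bcat 48 h and 6.47 and 9.09 CPM at bcat 0 h. CDX4 alone of its family was present at 0 h, and it had 0.435 and 0.458 CPM at Wnt3a 48 h and 3.23 and 5.74 CPM at Wnt3a 0 h, against 3.99 and 2.48 CPM at bcat 48 h and 1.76 and 3.42 CPM at bcat 0 h. NKX1-2 rose in both arms and more with induced beta-catenin (difference -4.77 ± 0.31, adjusted p = 2.76e-11), whereas CDX4 fell with Wnt3a and was not called with induced beta-catenin (difference -3.73 ± 0.57, adjusted p = 2.64e-05). At 48 h 3 of the 17 tested presomitic and somitic genes stood higher with Wnt3a and 6 lower, against 13.9% and 15.5% of all genes. Their summed 48 h level was 153 to 163 CPM with Wnt3a and 521 to 572 CPM with induced beta-catenin. In their change 4 were higher and 1 lower with Wnt3a, against 5.34% and 6.91% of all genes. Among the higher was RIPPLY2, whose difference reversed in sign without bcat 0 h replicate 2. LFNG, a glycosyltransferase that modifies NOTCH, was among the higher, with 26.0 and 32.2 CPM at Wnt3a 48 h and 12.3 and 13.8 CPM at Wnt3a 0 h, against 4.96 and 5.36 CPM at bcat 48 h and 39.1 and 37.2 CPM at bcat 0 h (4.03 ± 0.31, adjusted p = 1.72e-10). MSGN1 is a presomitic bHLH factor. MSGN1 had 0.109 and 0.0705 CPM at Wnt3a 48 h and 6.38 and 4.18 CPM at bcat 48 h, with 0 counts in both 0 h groups, and TBX6, a T-box factor of the same cells, rose in both arms with a difference of -0.08 ± 0.52.

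The other hours of both arms place the 48 h values. CER1 had 14.0 to 16.3 CPM at 24 h, 502 to 646 at 48 h, 273 in the single 72 h library, 83.6 to 115 at 96 h and 4.85 to 6.03 CPM at 120 h of Wnt3a, and it never passed 8.61 CPM at any hour of induction. NODAL was high at 8 h of Wnt3a (85.6 and 93.7 CPM), low at 24 h (14.5 and 16.4 CPM) and high again at 48 h, while in the bcat arm it was highest at 16 h (74.1 and 76.9 CPM) and stood at 0.738 and 0.817 CPM by 72 h. AXIN2 was likewise low at 24 h of Wnt3a (12.65 and 12.7 CPM) between 60.9 to 63.0 CPM at 8 h and 37.9 to 40.9 CPM at 48 h. With induction it was at 147 to 171 CPM at 8 h, 178 to 230 at 24 h, 289.7 to 294.7 at 48 h and 339 to 402 CPM at 72 h. CDX2 rose through the induction series, with 32.7 to 46.0 CPM at 24 h, 132.5 to 137 at 48 h and 209 to 236 CPM at 72 h, and stayed under 6 CPM at every hour of Wnt3a. SOX17 went on rising after 48 h of Wnt3a, with 72.2 CPM at 72 h and 88.2 and 153 CPM at 96 h. In cells given 10 µM CHIR99021, a GSK3 inhibitor, for 48 h, AXIN2 had 316 and 382 CPM, T 146 and 136 CPM, CDX2 121 and 141 CPM, NODAL 0.344 and 0.272 CPM, and CER1 0 counts. These CHIR99021 values were not tested against either arm.

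**Figure D3:**
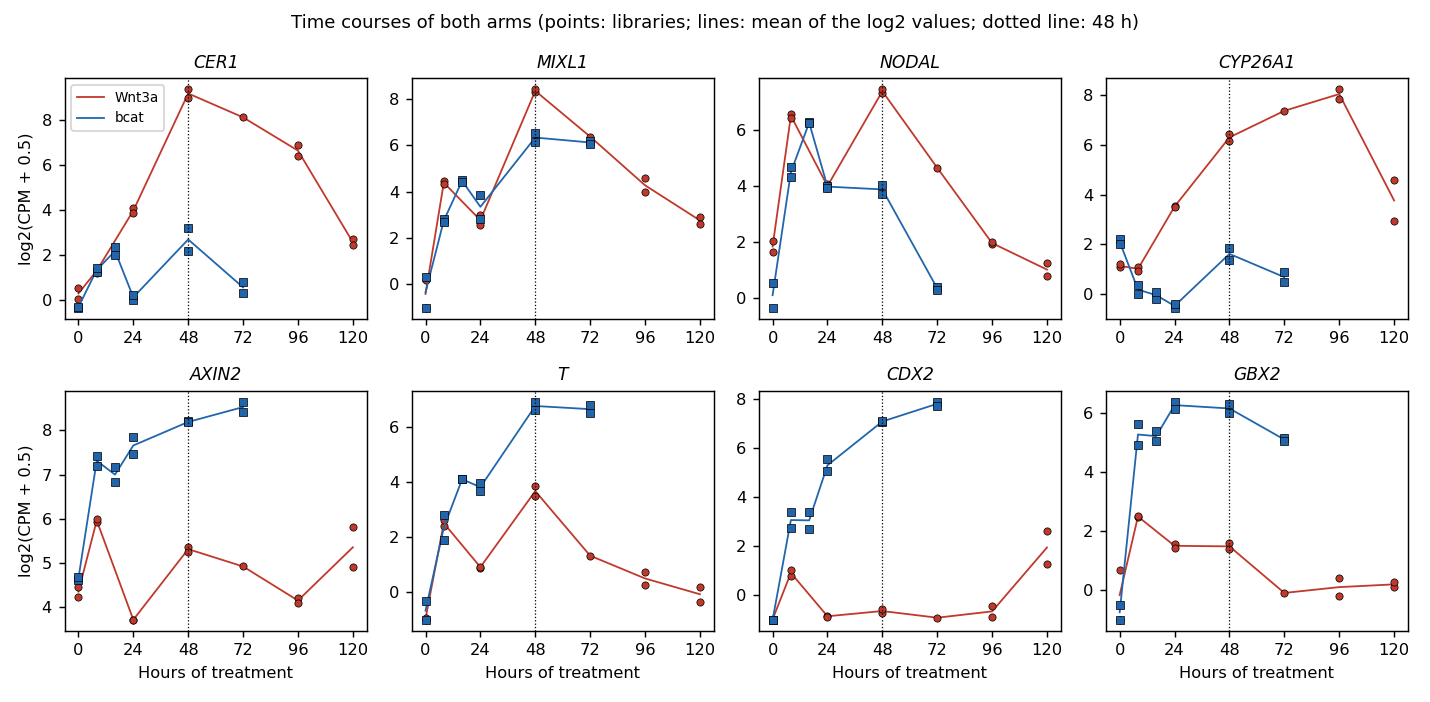
Level of 8 genes over the hours of treatment in the Wnt3a arm (red circles, to 120 h) and the bcat arm (blue squares, to 72 h), each point a library as log2(CPM + 0.5) and each line the mean of the log2 values; the dotted line marks 48 h. CER1, MIXL1 and NODAL peak at 48 h of Wnt3a above the bcat arm, CYP26A1 goes on rising to 96 h, and AXIN2, T, CDX2 and GBX2 are higher in the bcat arm at 48 h.

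Most pluripotency genes fell in each arm. Of 25 tested, 10 had a higher and 4 a lower Wnt3a change (6 higher without the doubtful libraries), with a median of 0.49. Both arms lowered most of the list, 16 genes with Wnt3a, against 8.77% of all genes, and 17 with induced beta-catenin, against 10.3%, and the summed level was 5911 to 6096 CPM at Wnt3a 48 h, 9901 to 11860 at Wnt3a 0 h, 6997 to 7014 at bcat 48 h and 8670 to 9663 CPM at bcat 0 h. POU5F1 (OCT4) had 842 and 914 CPM at Wnt3a 48 h and 899 and 991 CPM at Wnt3a 0 h, against 548 and 555 CPM at bcat 48 h and 995 and 1237 CPM at bcat 0 h. NANOG had 153 and 130.3 CPM at Wnt3a 48 h and 110.0 and 153 CPM at Wnt3a 0 h, against 25.2 and 31.1 CPM at bcat 48 h and 55.9 and 72.3 CPM at bcat 0 h. Both fell with induced beta-catenin and were not called with Wnt3a, with differences of 0.91 ± 0.15 (adjusted p = 6.72e-05) and 1.30 ± 0.34 (adjusted p = 0.0128), the second lost in 4 of the 8 fits that left 1 library out. SOX2 stood lower with Wnt3a, with 62.2 and 60.1 CPM at Wnt3a 48 h and 131 and 165 CPM at Wnt3a 0 h, against 131 and 155 CPM at bcat 48 h and 216 and 247 CPM at bcat 0 h. It fell in both arms, its 48 h level was lower with Wnt3a by 1.22 ± 0.15 (adjusted p = 3.55e-07), and the difference of changes was not called (-0.59 ± 0.22, adjusted p = 0.0717). FOXD3 and FGF4 were also called higher, FOXD3 falling 3.71 on the log2 scale with induced beta-catenin to 0.342 and 0.523 CPM, and FGF4, an embryonic growth factor, rising to 72.1 and 81.8 CPM at Wnt3a 48 h against 19.2 and 13.1 CPM at bcat 48 h. The call of FGF4 was lost without bcat 0 h replicate 2 (adjusted p = 0.0563).

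Epithelial genes were called mostly on the higher side. Of 24 tested junction and apical genes 7 had a higher and 1 a lower Wnt3a change, against 5.34% and 6.91% of all genes. In the bcat arm 16 of them fell, against 10.3% of all genes, and in the Wnt3a arm 10, against 8.77%. CLDN7 is a tight-junction claudin. CLDN7 had 51.4 and 51.9 CPM at Wnt3a 48 h and 66.9 and 74.2 CPM at Wnt3a 0 h, against 10.3 and 8.1 CPM at bcat 48 h and 58.8 and 67.7 CPM at bcat 0 h (difference 2.29 ± 0.23, adjusted p = 2.75e-08). Of 21 tested mesenchymal genes 15 rose and 1 fell with Wnt3a, against 7.80% and 8.77% of all genes. With induced beta-catenin 7 rose and 3 fell, against 11.2% and 10.3%. The Wnt3a change was higher in 5 and lower in 3. At 48 h 4 stood higher and 7 lower with Wnt3a, against 13.9% and 15.5%, and at 0 h 2 higher and 8 lower, against 12.2% and 12.1%. The summed 48 h level was 1243 to 1316 CPM with Wnt3a and 2414 to 2455 CPM with induced beta-catenin. VIM is the intermediate filament vimentin. VIM had 223 and 195 CPM at Wnt3a 48 h and 57.2 and 80.5 CPM at Wnt3a 0 h, against 1085 and 1130 CPM at bcat 48 h and 134 and 166 CPM at bcat 0 h (-1.32 ± 0.20, adjusted p = 2.57e-05). CDH2, N-cadherin, rose almost equally, by 3.38 ± 0.13 with Wnt3a and 3.29 ± 0.13 with induced beta-catenin. Of 38 collagens, integrins and laminins 14 had a higher and 4 a lower Wnt3a change (9 higher without the doubtful libraries). At 48 h 10 of the 38 stood higher with Wnt3a and 12 lower, and at 0 h 2 were higher and 15 lower in the Wnt3a arm. ITGA5 is the fibronectin receptor subunit. ITGA5 had 85.3 and 93.1 CPM at Wnt3a 48 h and 15.5 and 14.7 CPM at Wnt3a 0 h, against 47.0 and 38.0 CPM at bcat 48 h and 37.4 and 30.9 CPM at bcat 0 h, and its difference was 2.23 ± 0.28 (adjusted p = 2.14e-06).

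Replication genes and histones carried the most one-sided counts of the 37 lists, and both rose in the bcat arm and mostly not in the Wnt3a arm. Of 29 S phase genes 19 had a lower and 0 a higher Wnt3a change by edgeR (12 lower without Wnt3a 0 h replicate 2, and 0 higher at an unadjusted p under 0.05 and by DESeq2), with a median of -0.83. Induced beta-catenin raised 27 of them, against 11.2% of all genes, and Wnt3a 4, against 7.80%. At 48 h 9 were lower with Wnt3a, against 15.5%, and at 0 h 21 were higher in the Wnt3a arm, against 12.2%. UHRF1 couples replication to DNA methylation. UHRF1 had 70.9 and 89.7 CPM at Wnt3a 48 h and 73.4 and 93.9 CPM at Wnt3a 0 h, against 99.8 and 90.9 CPM at bcat 48 h and 12.9 and 15.4 CPM at bcat 0 h. The bcat 0 h libraries alone stood apart, and the difference was -2.80 ± 0.28 (adjusted p = 2.75e-08) although the 48 h levels were not called different. Replication-dependent histones differed at 48 h as well. At 0 h 9 of the 24 tested were higher in the Wnt3a arm and 0 lower, against 12.2% and 12.1% of all genes. Of 24 tested 20 had a lower and 0 a higher Wnt3a change by edgeR (13 lower without Wnt3a 0 h replicate 2, and 0 higher at an unadjusted p under 0.05 and by DESeq2), 22 rose with induced beta-catenin and 0 with Wnt3a, and 17 were lower at Wnt3a 48 h than at bcat 48 h. Their summed level was 4817 to 4818 CPM at Wnt3a 48 h and 4054 to 5985 CPM at Wnt3a 0 h, and 7816 to 8191 CPM at bcat 48 h and 4006 to 4585 CPM at bcat 0 h. Histone genes are near-identical copies, so the split of reads among them is uncertain.

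Cholesterol genes show the reverse case of a high Wnt3a 0 h level. With Wnt3a 29 of 31 tested fell, against 8.77% of all genes, and with induced beta-catenin 19, against 10.3%. At 0 h 24 were higher in the Wnt3a arm, against 12.2%. In their change 14 were lower and 1 higher with Wnt3a, against 6.91% and 5.34%. The lower count was 5 without Wnt3a 0 h replicate 2, and 9 without Wnt3a 48 h replicate 1 or with the 8 libraries alone. At 48 h 13 of the 31 stood higher with Wnt3a and 2 lower, against 13.9% and 15.5% of all genes. The summed level of the list was 3459 to 3760 CPM at Wnt3a 48 h and 2802 to 2895 CPM at bcat 48 h. SREBF1 is the lipid-synthesis regulator. SREBF1 had 20.7 and 27.3 CPM at Wnt3a 48 h and 66.6 and 65.3 CPM at Wnt3a 0 h, against 38.4 and 38.7 CPM at bcat 48 h and 24.1 and 18.6 CPM at bcat 0 h (-2.33 ± 0.30, adjusted p = 2.65e-06). INSIG1 holds SREBP proteins in the endoplasmic reticulum. INSIG1 had 32.4 and 34.3 CPM at Wnt3a 48 h and 116 and 152 CPM at Wnt3a 0 h, against 43.3 and 38.3 CPM at bcat 48 h and 45.0 and 61.9 CPM at bcat 0 h (-1.61 ± 0.23, adjusted p = 1e-05). The 48 h levels of INSIG1 were not called different, and its 0 h levels differed by 1.32 ± 0.16 (adjusted p = 5.45e-07).

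Growth factor pathways parted in opposite directions. Of 28 FGF ligands and ERK-feedback genes 10 had a higher and 2 a lower Wnt3a change (5 higher without bcat 0 h replicate 2). EGR1 is an immediate early gene of ERK signalling. EGR1 had 7.29 and 8.21 CPM at Wnt3a 48 h and 1.29 and 1.32 CPM at Wnt3a 0 h, against 0.627 and 0.915 CPM at bcat 48 h and 1.76 and 3.32 CPM at bcat 0 h (4.52 ± 0.65, adjusted p = 1.34e-05). SPRY4 is a feedback inhibitor of ERK signalling. SPRY4 had 111 and 122 CPM at Wnt3a 48 h and 55.6 and 77.3 CPM at Wnt3a 0 h, against 19.4 and 17.5 CPM at bcat 48 h and 28.5 and 36.1 CPM at bcat 0 h (1.60 ± 0.32, adjusted p = 0.000874). At 48 h 12 of 22 BMP ligands and response genes stood lower with Wnt3a and 1 higher, against 15.5% and 13.9% of all genes. In their change 7 were lower and 1 higher with Wnt3a. The lower count was 3 or 4 in 4 of the fits that left 1 library out. ID3 is a direct target of BMP signalling. ID3 had 64.5 and 75.9 CPM at Wnt3a 48 h and 29.8 and 36.7 CPM at Wnt3a 0 h, against 97.9 and 87.3 CPM at bcat 48 h and 8.23 and 9.95 CPM at bcat 0 h. It rose in both arms and more with induced beta-catenin (-2.27 ± 0.21, adjusted p = 6.5e-09). MSX1 is a homeobox target of BMP and WNT. MSX1 had 4.03 and 3.88 CPM at Wnt3a 48 h and 65.8 and 70.3 CPM at bcat 48 h, with 0 and 0.147 CPM at Wnt3a 0 h and 0 and 0.428 CPM at bcat 0 h.

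The amino acid and ATF4 response, which raises genes of amino acid supply when translation is restrained, was higher with Wnt3a. Of 27 tested 11 had a higher and 3 a lower Wnt3a change, against 5.34% and 6.91% of all genes. At 48 h 19 stood higher with Wnt3a and 3 lower, against 13.9% and 15.5%. At 0 h 11 were higher in the Wnt3a arm and 6 lower, against 12.2% and 12.1%. CHAC1 is a glutathione-degrading enzyme. CHAC1 had 23.2 and 22.8 CPM at Wnt3a 48 h and 6.79 and 6.03 CPM at Wnt3a 0 h, against 1.31 and 1.57 CPM at bcat 48 h and 5.59 and 5.35 CPM at bcat 0 h (3.84 ± 0.50, adjusted p = 2.18e-06). ASNS is asparagine synthetase. ASNS had 149 and 122 CPM at Wnt3a 48 h and 83.4 and 109.9 CPM at Wnt3a 0 h, against 46.0 and 40.9 CPM at bcat 48 h and 134 and 157 CPM at bcat 0 h (2.20 ± 0.18, adjusted p = 7.06e-10). Both rose in the Wnt3a arm and fell in the bcat arm, the rise of ASNS being small (0.45 ± 0.13) and not called without Wnt3a 0 h replicate 1 or Wnt3a 48 h replicate 1.

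**Figure D4:**
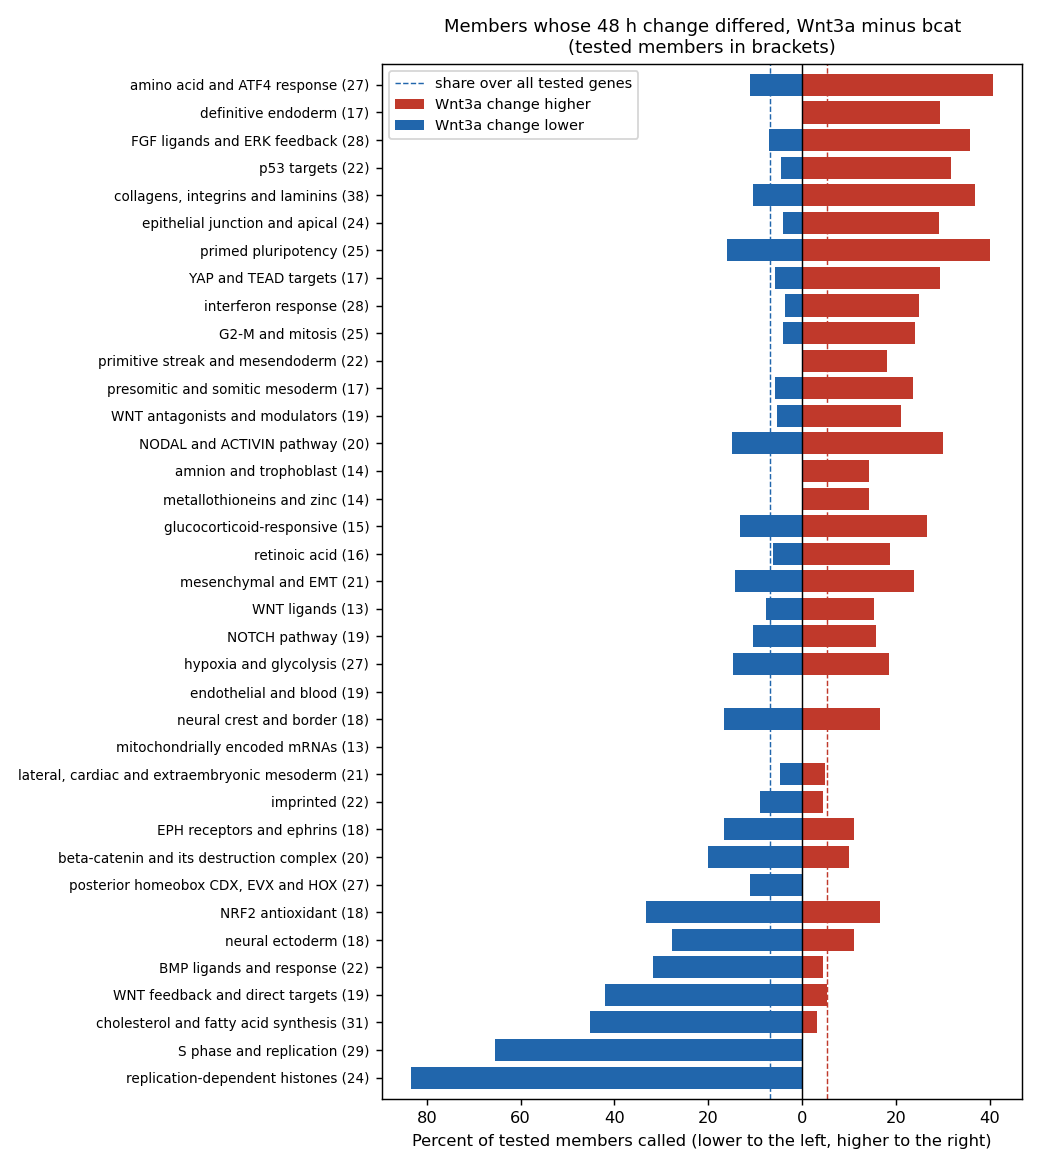
Percent of the tested members of each of 37 gene lists called with a higher (red, right) or lower (blue, left) Wnt3a change, ordered by the balance of the 2; dashed lines mark the shares over all genes tested, 5.34% and 6.91%. Replication-dependent histones and S phase genes stand lowest and the amino acid and ATF4 response highest.

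Among the 12 largest positive differences, 4 more genes rose with Wnt3a from low levels. CYP26A1 degrades retinoic acid. CYP26A1 had 71.5 and 85.3 CPM at Wnt3a 48 h and 1.62 and 1.82 CPM at Wnt3a 0 h, against 2.11 and 3.14 CPM at bcat 48 h and 4.12 and 3.53 CPM at bcat 0 h. FOXJ1 is a regulator of motile cilia made in the embryonic node. FOXJ1 had 16.7 and 21.2 CPM at Wnt3a 48 h and 2.59 and 2.92 CPM at Wnt3a 0 h, against 0.513 and 0.523 CPM at bcat 48 h and 2.94 and 5.35 CPM at bcat 0 h. PDGFB is a growth factor gene. PDGFB had 8.92 and 16.7 CPM at Wnt3a 48 h and 0.323 and 1.07 CPM at Wnt3a 0 h, against 0.855 and 1.7 CPM at bcat 48 h and 5.29 and 3.96 CPM at bcat 0 h. The differences were 6.03 ± 0.78 (adjusted p = 6.82e-06), 5.83 ± 0.65 (adjusted p = 1.48e-07) and 5.66 ± 0.77 (adjusted p = 1.06e-05). MYCT1 had 5.22 and 5.25 CPM at Wnt3a 48 h and 0.323 and 0.294 CPM at Wnt3a 0 h, against 0.285 and 0 CPM at bcat 48 h and 2.94 and 2.57 CPM at bcat 0 h (7.91 ± 1.09, and 13.07 without bcat 48 h replicate 1).

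The remaining 4 of the 12 owed their difference to the bcat arm alone. SCARB2 is a lysosomal membrane receptor. SCARB2 had 3.81 and 4.12 CPM at Wnt3a 48 h and 2.59 and 2.76 CPM at Wnt3a 0 h, against 0.057 and 0 CPM at bcat 48 h and 13.2 and 7.38 CPM at bcat 0 h, and it was back at 2.85 and 7.28 CPM at 72 h of induction. OVCA2 had 9.03 and 6.62 CPM at Wnt3a 48 h and 9.7 and 7.54 CPM at Wnt3a 0 h, against 0 and 0.131 CPM at bcat 48 h and 5.0 and 2.89 CPM at bcat 0 h, and it shares exons with DPH1, so its count is uncertain. SCNN1G is an epithelial sodium channel subunit. SCNN1G had 0.218 and 0.247 CPM at Wnt3a 48 h and 0.323 and 0.279 CPM at Wnt3a 0 h, against 0.057 and 0.131 CPM at bcat 48 h and 25.9 and 19.9 CPM at bcat 0 h. PRR15L had the same shape, with 5.29 and 6.74 CPM at bcat 0 h and under 0.2 CPM in the other 6 libraries, and its call was lost in 6 of 17 alternatives. SCNN1G and PRR15L thus stood high in uninduced bcat cells, and the 48 h levels of neither were called different.

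Most of the 12 largest negative differences were genes that induced beta-catenin switched on, GBX2 and HOXB2 above among them. TNFRSF19 is a TNF-receptor family gene known as a WNT target. TNFRSF19 had 0.435 and 1.06 CPM at Wnt3a 48 h and 0.323 and 0.528 CPM at Wnt3a 0 h, against 190.4 and 175 CPM at bcat 48 h and 2.94 and 0.856 CPM at bcat 0 h. GREB1L is a gene needed for kidney development. GREB1L had 0.544 and 0.74 CPM at Wnt3a 48 h and 3.23 and 1.76 CPM at Wnt3a 0 h, against 95.9 and 88.6 CPM at bcat 48 h and 3.53 and 1.93 CPM at bcat 0 h. ZEB2 is a repressor of epithelial genes. ZEB2 had 26.5 and 16.9 CPM at Wnt3a 48 h and 2.26 and 1.79 CPM at Wnt3a 0 h, against 123 and 99.2 CPM at bcat 48 h and 0 and 0.107 CPM at bcat 0 h. The differences were -6.20 ± 0.64 (adjusted p = 5.77e-08), -6.73 ± 0.82 (adjusted p = 6.35e-06) and -6.86 ± 0.85 (adjusted p = 1.28e-06). ZEB2 rose in both arms, and its difference was -10.81 without bcat 0 h replicate 2, the library that held its single 0 h count there. The neural regulators ZIC1 and NEUROG2 were near 0 except after induction, and their calls were also lost with the deposited values rounded as they stand. ZIC1 had 0.435 and 0.423 CPM at Wnt3a 48 h and 64.6 and 70.0 CPM at bcat 48 h, and NEUROG2 0 counts at Wnt3a 48 h and 7.24 and 9.54 CPM at bcat 48 h, so NEUROG2 was at least 99.4-fold lower with Wnt3a. Without Wnt3a 0 h replicate 2 the calls of ZIC1, NEUROG2, TNFRSF19 (adjusted p = 0.293) and ZNF703 (-0.74 in place of -6.20) were lost.

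PCDH8 is a protocadherin of the paraxial mesoderm. PCDH8 had 0.218 and 0.247 CPM at Wnt3a 48 h and 1.29 and 0.44 CPM at Wnt3a 0 h, against 17.3 and 31.6 CPM at bcat 48 h and 0 and 0.428 CPM at bcat 0 h (-7.34 ± 1.38, adjusted p = 0.000645, and -13.21 without bcat 0 h replicate 2). DNAJC15 is a mitochondrial co-chaperone gene. It had 9.03 and 10.1 CPM at Wnt3a 48 h and 12.3 and 10.1 CPM at Wnt3a 0 h, against 17.1 and 15.4 CPM at bcat 48 h and 0 counts at bcat 0 h. In the bcat arm it then had 0.256 and 0.295 CPM at 8 h, 0.441 and 0.476 at 16 h, 1.34 and 1.79 at 24 h and 23.8 and 34.7 CPM at 72 h, and at 0 h it was at least 43.1-fold higher in Wnt3a-arm cells. RPL7P20, a ribosomal protein pseudogene whose reads are shared with relatives, and a ribosomal RNA pseudogene completed the 12.

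**Figure D5:**
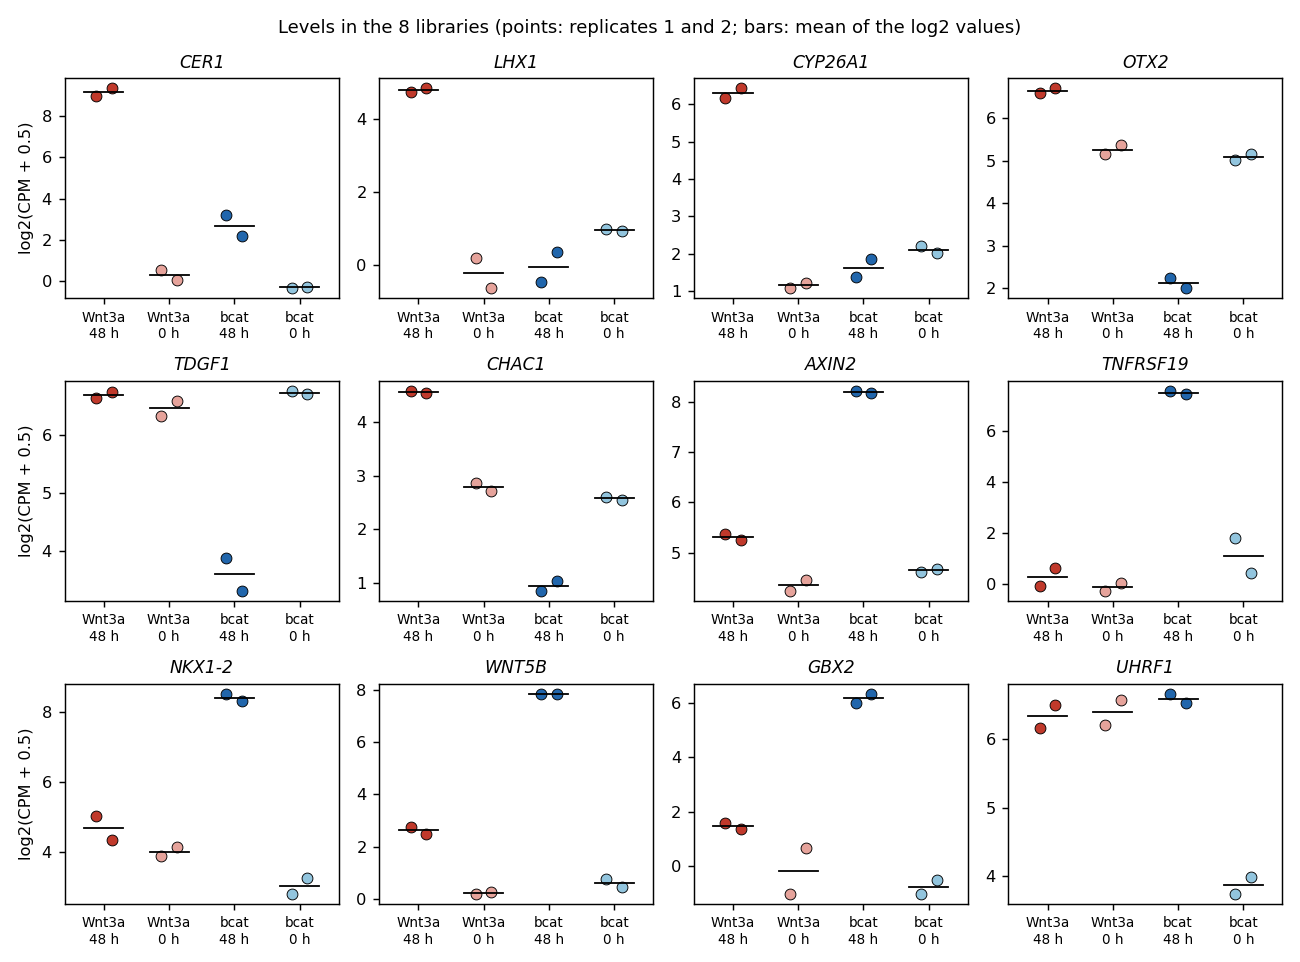
Level of 12 genes in the 8 libraries as log2(CPM + 0.5), points standing for replicates 1 and 2 and bars for the mean of their log2 values. CER1, LHX1 and CYP26A1 are high at Wnt3a 48 h alone, and OTX2 and CHAC1 are highest there and fall at bcat 48 h. TDGF1 is low at bcat 48 h alone. AXIN2, TNFRSF19, NKX1-2, WNT5B and GBX2 are highest at bcat 48 h, and UHRF1 is low at bcat 0 h alone.

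Markers of other cell types the cultures could hold ranged widely in level. Of 19 tested endothelial and blood genes 12 stayed under 1 CPM in the mean of every group, and edgeR called 0 in either direction, with 2 higher and 1 lower at an unadjusted p under 0.05 and 1 higher and 0 lower by DESeq2. KDR is the VEGF receptor gene that early mesoderm also uses. KDR had 85.0 and 76.1 CPM at Wnt3a 48 h and 119 and 138 CPM at Wnt3a 0 h, against 94.1 and 46.4 CPM at bcat 48 h and 195 and 258 CPM at bcat 0 h. Among 18 neural ectoderm genes 2 had a higher and 5 a lower Wnt3a change and 7 stayed under 1 CPM in every group, and GBX2, ZIC1, NEUROG2 and NPTX1 belong to that list. Over all genes 5.34% had a higher and 6.91% a lower Wnt3a change. Among 18 neural crest and border genes the counts were 3 and 3, with 6 under 1 CPM. Lateral, cardiac and extraembryonic mesoderm gave 1 and 1 of 21, with 9 under 1 CPM, and amnion and trophoblast 2 and 0 of 14 by edgeR (2 lower at an unadjusted p under 0.05 and 1 by DESeq2), with 6 under 1 CPM. The summed level of the neural ectoderm list was 360.4 to 389 CPM at Wnt3a 48 h and 357 to 422 CPM at Wnt3a 0 h, and 623 to 629 CPM at bcat 48 h and 594 to 658 CPM at bcat 0 h. Their part in the other results was not tested.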

How the data were processed

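Total RNA sequencing (TruSeq Stranded Total RNA) was used for each culture, per the labels' protocols. The deposited table holds estimated counts per gene symbol, made by the authors with kallisto 0.43.0 per the submitters' processing notes. The sources used here do not give the genome build or the annotation. Each library's values were whole-number steps multiplied by 1 constant (0.265 to 6.58). That constant was found from the low values and divided out, and the result was rounded. Among low values (20 counts or fewer) 57.0% to 81.3% were then whole numbers to a tolerance of 0.1. Depth sets the precision: 1 count weighs most in the shallow libraries, and intervals and floors (3 counts over a group) cover counting error only, at 95% confidence. Intervals for 1 to 3 counts are exact.

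Groups came from the labels. The 2 Wnt3a 72 h columns were identical and were counted once. edgeR 4.0.16 (R 4.3.3, limma 3.58.1) fitted 1 mean per group over 37 libraries, with TMM scaling, its own filter on low counts by group, trended dispersions and a robust quasi-likelihood test, and p-values were Benjamini-Hochberg adjusted over all genes tested; a gene is called at an adjusted p under 0.05. Alternatives were DESeq2 1.42.0 (Wald test and size factors), scaling on protein-coding genes by GENCODE 29 biotypes, no filter, the 8 libraries alone, a replicate block, the deposited values rounded as they stand, ribosomal RNA genes left out, doubtful libraries left out, and each of the 8 libraries left out in turn. Each SE after ± was derived from the edgeR test, as the absolute log2 value divided by the square root of its F statistic, and was not estimated separately. The scripts were tested on simulated data.

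The genes and the 37 lists were chosen with earlier results of these data known. The lists share members, so their counts are not independent. CER1 is on the WNT modulator, streak, NODAL and endoderm lists, and CYP26A1 on the NODAL, endoderm, presomitic and retinoic acid lists. Named genes are the 12 with the largest positive and the 12 with the largest negative difference among called genes with a mean of 5 CPM or more in at least 1 group and changes that do not overlap, up to 4 called members of each list by size of difference (or up to 2 by level where 0 were called), and 17 regulators fixed by name. CDX1, HOXB1, EVX1, DKK4, NOTUM, RNF43, ZNRF3, TCF7, MYC, MSX1, ID3, SPRY4, FOXA2, VIM, CDH2, FST, FOXH1, WNT3, WNT8A, LIN28A, DPPA4, DNMT3B and L1TD1 were added after their values were seen. RefSeq promoter windows matched 102 of 147 named genes. The table gives 27 symbols as dates, and these were not named. A few items are not reported here.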

Additional observations from a re-analysis of the deposited data

Results flagged for a closer look

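A test of the difference itself, in edgeR's quasi-likelihood fit with Benjamini-Hochberg adjustment, picked out 2977 genes whose 48 h change differed between the Wnt3a and bcat arms. Of these, 305 were called in both arms and in opposite directions, 137 rising with Wnt3a and falling with induced beta-catenin and 168 the reverse. Among the 24 genes with the largest differences, 6 had every library of the Wnt3a arm moving one way and every library of the bcat arm the other, each change being called. LEFTY2, HHEX, MYCT1, FOXJ1 and PDGFB rose with Wnt3a and fell with induced beta-catenin, with log2 differences of 10.16, 9.78, 7.91, 5.83 and 5.66, and RPL7P20, a ribosomal protein pseudogene, did the reverse at -6.45. The fitted value of LEFTY2 rests on 0 counts at bcat 48 h and depends on the prior count.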

How the results depend on the processing

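The count of 2977 stayed within 1.5 times under DESeq2's size factors (3225), protein-coding scaling (3229), no filter (2395), DESeq2's Wald test (3492), the deposited values as they stand (3873) and ribosomal RNA left out (3068). It was 1816 with the 8 libraries alone, a fit that tested 17856 genes, and 1938 without the doubtful libraries. Its parts moved likewise, to 742 higher without the doubtful libraries and 935 lower with the 8 libraries alone. Leaving out each library in turn gave 2214 to 3000 genes in all, 852 to 1285 higher, 929 to 1913 lower, 2494 to 4258 changed with Wnt3a and 3629 to 6101 different at 0 h; the lowest values came without Wnt3a 0 h replicate 2, except 852, which came without bcat 0 h replicate 2. The share of calls that were higher was 43.6% in the report's fit, 48.2% with DESeq2's size factors and 36.2% to 58% with 1 library left out, and without Wnt3a 0 h replicate 2 the median of all genes was 0.21. Beyond fewer libraries or genes, the cause was not tested.

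The sign of 3 values reversed when 1 library was left out. The difference of RIPPLY2, a presomitic repressor, was -0.33 without bcat 0 h replicate 2 (highest 12.68), that of ATOH8 was 2.17 without Wnt3a 0 h replicate 2 (lowest -3.48), and the Wnt3a change of PMVK was 0.035 without Wnt3a 0 h replicate 2 (lowest -1.04); the cause was not tested. Of 150 genes with a called difference that were followed, 93 stayed called under the 18 alternatives and 57 lost the call in at least 1.

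Replicate numbers did not pair the libraries: deviations of same-numbered libraries correlated at 0.043 in the Wnt3a arm and -0.151 in the bcat arm. With the replicate number as a block within each arm 2798 genes were called. With the bcat 48 h numbers crossed, a pairing tried after the data were seen, 2791 were called. Genes at or near 0 counts at 0 h, where 1 library sets the start, are limited by depth.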

Other observations

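Of 16 tested retinoic acid genes 3 had a higher and 1 a lower Wnt3a change, against 5.34% and 6.91% of all genes. ALDH1A3 makes retinoic acid. ALDH1A3 had 3.7 and 7.08 CPM at Wnt3a 48 h and 1.94 and 2.1 CPM at Wnt3a 0 h, against 2.85 and 1.96 CPM at bcat 48 h and 5.59 and 8.67 CPM at bcat 0 h, a difference of 3.02 ± 0.54 (adjusted p = 0.000192).

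Several genes stood high in uninduced bcat cells and so had a higher Wnt3a change without a 48 h gap to match. PHLDA1 is a growth-factor responsive gene. PHLDA1 had 34.1 and 34.7 CPM at Wnt3a 48 h and 36.9 and 41.4 CPM at Wnt3a 0 h, against 24.7 and 23.0 CPM at bcat 48 h and 253 and 277 CPM at bcat 0 h, a difference of 3.26 ± 0.21 (adjusted p = 7.09e-12) with 48 h levels apart by 0.52 ± 0.15. TFAP2C is a trophoblast and naive-state transcription factor. TFAP2C had 4.03 and 3.45 CPM at Wnt3a 48 h and 2.26 and 2.42 CPM at Wnt3a 0 h, against 5.24 and 4.57 CPM at bcat 48 h and 27.9 and 26.4 CPM at bcat 0 h, a difference of 3.08 ± 0.37 (adjusted p = 5.71e-07). IRF9 is an interferon signalling factor. IRF9 had 4.13 and 4.68 CPM at Wnt3a 48 h and 2.26 and 2.77 CPM at Wnt3a 0 h, against 3.02 and 3.4 CPM at bcat 48 h and 12.35 and 9.95 CPM at bcat 0 h, a difference of 2.52 ± 0.39 (adjusted p = 2.45e-05). HES1, a NOTCH target, was instead low at Wnt3a 0 h alone, with 26.2 and 26.6 CPM at Wnt3a 48 h and 5.5 and 8.13 CPM at Wnt3a 0 h, against 22.4 and 29 CPM at bcat 48 h and 21.2 and 32.7 CPM at bcat 0 h, a difference of 1.94 ± 0.34 (adjusted p = 0.00017).

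Among the remaining lists, 4 had more members called higher than lower by at least 4, beside 5.34% higher and 6.91% lower over all genes. YAP and TEAD targets had 5 higher and 1 lower Wnt3a change of 17 (3 higher without bcat 0 h replicate 2), p53 targets 7 and 1 of 22 (4 higher in 4 of the fits that left 1 library out), interferon genes 7 and 1 of 28 (4 higher without bcat 48 h replicate 1) and G2-M genes 6 and 1 of 25 (1 higher without the doubtful libraries). Hypoxia and glycolysis gave 5 and 4 of 27, with 24 of them lower at 0 h in the Wnt3a arm, and NRF2 genes 3 and 6 of 18, with 0 higher when any of 3 single libraries was left out. At 0 h 0 of the G2-M genes were higher in the Wnt3a arm and 14 lower, against 12.2% and 12.1% of all genes. At 48 h 2 of them stood higher with Wnt3a and 8 lower, against 13.9% and 15.5%. The 48 h counts were 9 and 2 for YAP and TEAD targets, 7 and 2 for p53 targets, 9 and 3 for interferon genes and 2 and 17 for hypoxia and glycolysis. In the change, NOTCH gave 3 higher and 2 lower of 19, ephrins and EPH receptors 2 and 3 of 18, glucocorticoid-responsive genes 4 and 2 of 15, imprinted genes 1 and 2 of 22, and metallothionein and zinc genes 2 and 0 of 14 by edgeR (1 lower at an unadjusted p under 0.05 and 0 by DESeq2). For the 13 mitochondrially encoded mRNAs edgeR called 0 in either direction, with 1 higher and 1 lower at an unadjusted p under 0.05 and 0 by DESeq2.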
